A study of Mus musculus with 4 samples.

Results

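TRBV17, TRBV19 and TRBV29 are the mouse TCRβ variable segments known to serologists as Vβ9, Vβ6 and Vβ7. Their clones were taken from the TCRβ clone tables of splenic CD4 T cells by the first V segment listed for each clone, without its allele. Of 382531 clones in 4 libraries, 24597 (6.43%) used one of these 3 segments, namely 9010 with TRBV17, 5561 with TRBV19 and 10026 with TRBV29. No clone of the 3 segments listed several V segments. The libraries came from 2 samples of wild type (WT) mice and 2 of Tet2/3 DKO mice, all on the C57BL/6 background, male and female, with an average age of 25 days. Tet2/3 DKO mice lack Tet2 in the germline (Tet2-/-) and carry floxed Tet3 alleles (Tet3 flx/flx) deleted by CD4Cre, which acts at the CD4 CD8 double positive stage, when the TCRβ gene has already been rearranged. Tet3 is thus still present while TCRβ rearranges, and Tet2 is not. Live CD4+ CD25- TCRβ+ cells that did not bind the aGalCer-loaded CD1d tetramer were sorted, so regulatory and iNKT cells were depleted. The tables hold receptor sequences only, and the cell type was not checked against marker genes. Libraries held 365421 to 569678 TCRβ reads, and 26.1% to 27.0% of their clones rested on 1 read.

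A TCRβ chain is assembled in the thymus from a V, a D and a J segment. CDR1 and CDR2 are written in the V segment, while CDR3 spans the junction, where bases are trimmed from the segment ends and others are inserted. CDR3 makes most of the contact with the peptide, and the V segment sets which superantigens the chain can bind. The classical example is the minor lymphocyte stimulating (Mls) antigens, products of mouse mammary tumour proviruses: Mls-1a is bound by Vβ6, Vβ7, Vβ8.1 and Vβ9 chains, and cells that carry them are deleted in mice that express it. C57BL/6 mice do not carry the Mls-1a provirus. Chains encoded by TRBV26 (Vβ3) are the classical targets of another group of Mls antigens. Nothing in these tables measures superantigen binding.

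The V parts of the 3 segments, from the start of framework region 1 to the end of framework region 3, are shown because the superantigen contacts lie in them. Each is the sequence carried by most in-frame clones of the segment (84.5% for TRBV17, 79.4% for TRBV19 and 82.1% for TRBV29), 270 nucleotides long, with CDR1 (bases 79 to 93) and CDR2 (bases 145 to 162) in capitals.
TRBV17: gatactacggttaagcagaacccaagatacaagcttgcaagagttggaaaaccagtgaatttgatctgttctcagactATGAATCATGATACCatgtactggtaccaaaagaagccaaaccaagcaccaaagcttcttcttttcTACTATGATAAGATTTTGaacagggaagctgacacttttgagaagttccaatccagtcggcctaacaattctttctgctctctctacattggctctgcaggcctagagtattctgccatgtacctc
TRBV19: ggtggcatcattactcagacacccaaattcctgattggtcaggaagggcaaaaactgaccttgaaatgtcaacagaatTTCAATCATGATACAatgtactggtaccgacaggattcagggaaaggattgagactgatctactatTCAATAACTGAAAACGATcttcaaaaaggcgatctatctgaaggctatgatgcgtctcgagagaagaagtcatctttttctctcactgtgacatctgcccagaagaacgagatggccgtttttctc
TRBV29: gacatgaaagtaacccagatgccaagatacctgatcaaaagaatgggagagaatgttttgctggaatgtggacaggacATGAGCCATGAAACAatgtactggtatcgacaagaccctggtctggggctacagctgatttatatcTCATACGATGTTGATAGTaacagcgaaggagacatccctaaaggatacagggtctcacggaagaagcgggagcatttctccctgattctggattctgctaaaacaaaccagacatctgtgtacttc
None of the 3 holds an in-frame stop codon. RefSeq on GRCm38 places Trbv17 at chr6:41163092-41163556, Trbv19 at chr6:41178589-41179048 and Trbv29 at chr6:41271403-41271881, and gives the last one the biotype of a V segment pseudogene. The other 2 are listed as V segments. Among the 12 segments with a V part of this length, the median identity of the 66 pairs was 44.8%. TRBV19 and TRBV29 were 52.6% identical, TRBV17 and TRBV29 50.7%, and TRBV17 and TRBV19 48.1%. TRBV13-3 (Vβ8.1) was closer to TRBV29, at 60.7%, than any 2 of the 3 segments were to each other.

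The segments also write the first codons of CDR3. The most frequent start of CDR3 among clones listed with an untrimmed V end (1329 of 1701 for TRBV17, 635 of 833 for TRBV19 and 824 of 1089 for TRBV29) is shown because codon 5, in capitals, is the first codon in which the 3 differ in more than a silent base.
TRBV17: tgtgctagcagtAGAga
TRBV19: tgtgccagcagtATAg
TRBV29: tgtgctagcagtTTAtc

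Together the 3 segments held 6.62% and 5.95% of TCRβ reads in WT libraries, against 6.20% and 5.75% in Tet2/3 DKO libraries. TRBV29 held 2.86% (95% Wilson confidence interval 2.81% to 2.92%) and 2.62% (2.57% to 2.66%) in WT replicates 1 and 2, and 2.59% (2.55% to 2.64%) and 2.10% (2.06% to 2.13%) in Tet2/3 DKO replicates 1 and 2. Both Tet2/3 DKO libraries lay below both WT libraries, with Tet2/3 DKO replicate 1 close to WT replicate 2, and 4 of 24 segments (16.7%) were lower without overlap. TRBV17 held 2.56% (2.51% to 2.61%) and 2.27% (2.23% to 2.32%) in WT libraries, against 2.39% (2.34% to 2.44%) and 2.16% (2.13% to 2.20%) in Tet2/3 DKO, and the genotypes overlapped. TRBV19, the rarest of the 3, held 1.197% (1.16% to 1.23%) and 1.06% (1.03% to 1.09%) in WT libraries, against 1.21% (1.18% to 1.25%) and 1.49% (1.45% to 1.52%) in Tet2/3 DKO. Here both Tet2/3 DKO libraries lay above both WT libraries, replicate 1 by little, and 3 of 24 segments (12.5%) were higher without overlap. These intervals cover counting error only, since the reads carry no molecular identifiers. By their mean share of reads the segments ranked at 12 (TRBV29), 13 (TRBV17) and 18 (TRBV19) of 24. The order of TRBV29 and TRBV17 was turned in Tet2/3 DKO replicate 2.

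**Figure D1:**
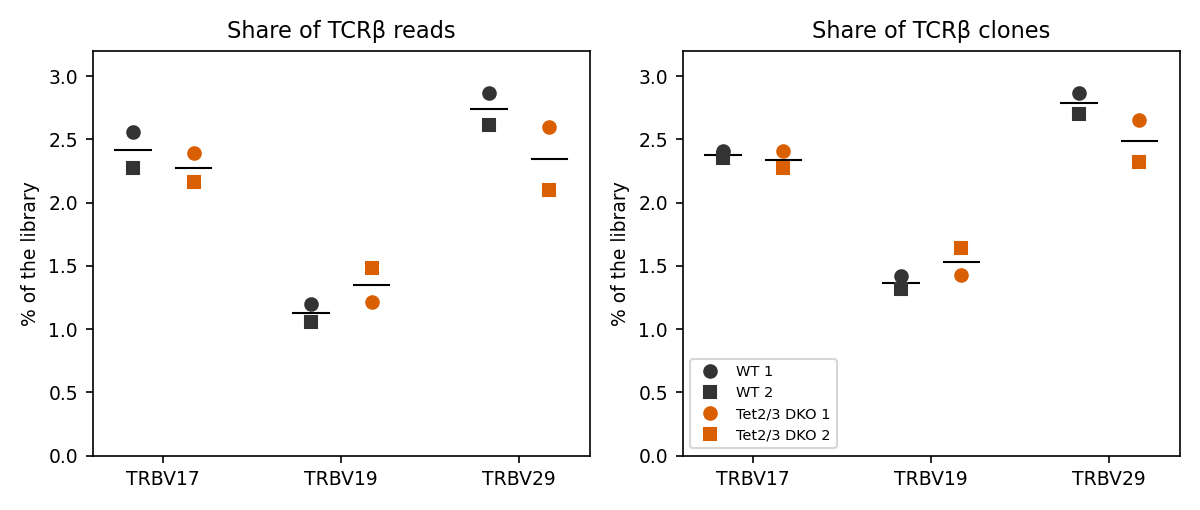
Share of TCRβ reads (left) and of TCRβ clones (right) of each segment, in percent of the library. Each symbol is 1 library and each bar the mean of 2. TRBV19 lies below the other 2 segments in every library, and the genotypes differ by less for TRBV17 than for TRBV29.

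None of the 3 differences between genotypes passed the test. With the quasi-likelihood test of edgeR on reads per segment, 0 of 24 segments (0%) were called at an adjusted p under 0.05, and 3 (12.5%) had an unadjusted p under 0.05. DESeq2 called 1 segment (4.17%), TRBV4. The log2 fold change in Tet2/3 DKO against WT was -0.22 (SE 0.18, edgeR adjusted p = 0.626) for TRBV29, 0.26 (SE 0.23, adjusted p = 0.626) for TRBV19 and -0.09 (SE 0.18, adjusted p = 0.887) for TRBV17. Leaving out 1 library moved the log2 fold change of TRBV29 to between -0.39 and -0.08, and that of TRBV19 to between 0.11 and 0.40. The sizes were largest without Tet2/3 DKO replicate 1 and smallest without Tet2/3 DKO replicate 2. Over 12 alternatives the adjusted p stayed between 0.147 and 0.999 for TRBV29, 0.422 and 0.999 for TRBV19, and 0.717 and 0.999 for TRBV17. Without Tet2/3 DKO replicate 1, edgeR called 8 segments (33.3%), none of them among these 3. Such a fit holds a single Tet2/3 DKO library, which is assumed to vary like the WT pair, here and for TRBV13-3 and the V-J pairs named further on. Samples are distinct biological replicates in the study's terms, and p-values measure the spread between 2 samples a genotype. In simulations of the 24 segments, 65% of those changed 2-fold and 98.8% of those changed 4-fold were called, so a change of 2-fold or less could be missed. Of the other segments linked to Mls antigens, TRBV13-3 had a log2 fold change of -0.13 (edgeR adjusted p = 0.626) and TRBV26 one of 0.04 (adjusted p = 0.895), and 0 of these 2 were called. Without Tet2/3 DKO replicate 1, TRBV13-3 was called lower (edgeR adjusted p = 0.00357, the lowest of its alternatives, which reach 0.999). Fewer cells with a segment and less TCRβ RNA per cell cannot be told apart in shares of reads.

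Counting clones in place of reads gave the same order of the means, with TRBV29 above TRBV17 in every library. TRBV29 made up 2.87% and 2.70% of clones in WT libraries, against 2.65% and 2.32% in Tet2/3 DKO libraries, a log2 ratio of -0.16. TRBV19 made up 1.42% and 1.32% in WT libraries, against 1.43% and 1.64% in Tet2/3 DKO libraries, a log2 ratio of 0.17. Neither overlapped between genotypes, which was also the case for 8 of 24 segments (33.3%), 5 of them lower (20.8%) and 3 higher (12.5%) in Tet2/3 DKO. Without Tet2/3 DKO replicate 2 these log2 ratios were -0.07 and 0.06, and over the libraries left out they reached -0.26 and 0.26. With each library drawn down to the smallest total of reads, TRBV19 overlapped (1.418% and 1.296% in WT libraries, against 1.416% and 1.590% in Tet2/3 DKO libraries). TRBV17 made up 2.41% and 2.35% in WT libraries, against 2.41% and 2.27% in Tet2/3 DKO libraries, a log2 ratio of -0.02. With 2 libraries per genotype the exact two-sided permutation test cannot go below p = 0.333, the value for TRBV19 and TRBV29 (0.75 after Benjamini-Hochberg adjustment over 18 tests of the 3 segments), and it gave 0.667 for TRBV17. A TRBV19 clone had 3.998 reads on average, against 4.69 ± 0.55 for all other TRBV clones, and was lower in 4 of 4 libraries (SD over 4 libraries, two-sided exact sign-flip test, p = 0.13, adjusted 0.144). Of TRBV19 clones, 32.2% to 33.0% rested on 1 read, compared with 22.9% to 25.4% of TRBV17 and 24.7% to 26.4% of TRBV29 clones.

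The J segment brings the end of CDR3, and the TRBJ segments lie in a TRBJ1 and a TRBJ2 cluster, each behind its own D segment. TRBV17 had the highest mean share of joins to the TRBJ2 cluster. Its TRBJ2 share of reads was 87.1% and 81.1% in WT libraries, against 83.1% and 84.2% in Tet2/3 DKO libraries. In the same libraries all other TRBV reads had 72.5% and 73.8%, and 70.8% and 72.2%. Every TRBV17 value lay above every value of the other clones, by 11.6 percentage points on average (SD 3.01, higher in 4 of 4 libraries, two-sided exact sign-flip test, p = 0.13, adjusted 0.144 over 15 tests, p being the smallest that 4 libraries allow). By mean TRBJ2 share TRBV17 ranked at 1 of 24, both by reads and by clones. The same held in clones without a reading frame, which make no receptor: 84.3% ± 3.44 of 590 out-of-frame TRBV17 clones used TRBJ2, against 74.8% ± 1.11 of 12166 such clones of the other 21 segments (SD, n = 4 libraries). In-frame clones had 83.4% ± 1.49 and 71.8% ± 0.95.

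TRBV19 and TRBV29 lay on the other side, with TRBJ2 shares of reads of 70.6% ± 1.79 and 68.4% ± 2.86 (SD, n = 4 libraries). Both were lower than all other TRBV reads in 4 of 4 libraries, by 2.01 and 4.28 percentage points (two-sided exact sign-flip test, p = 0.13, adjusted 0.144). Without the 10 largest clones of each library the TRBV19 difference was -1.71 and no longer had 1 sign in all 4 libraries (p = 0.25, same exact test). For TRBV29 the genotypes did not overlap, with 70.6% and 71.2% in WT against 66.2% and 65.7% in Tet2/3 DKO libraries. This was a difference of -4.93 percentage points (two-sided exact permutation test, p = 0.333, adjusted 0.75). It was -1.91 when each clone was counted once. A lower TRBJ2 share of reads without overlap was found in 7 of 24 segments (29.2%). By clones, all 3 segments lay lower in Tet2/3 DKO without overlap, as did 11 of 24 segments (45.8%). For TRBV17 the difference by reads was -0.44 percentage points, and it was 2.53 without WT replicate 1.

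**Figure D2:**
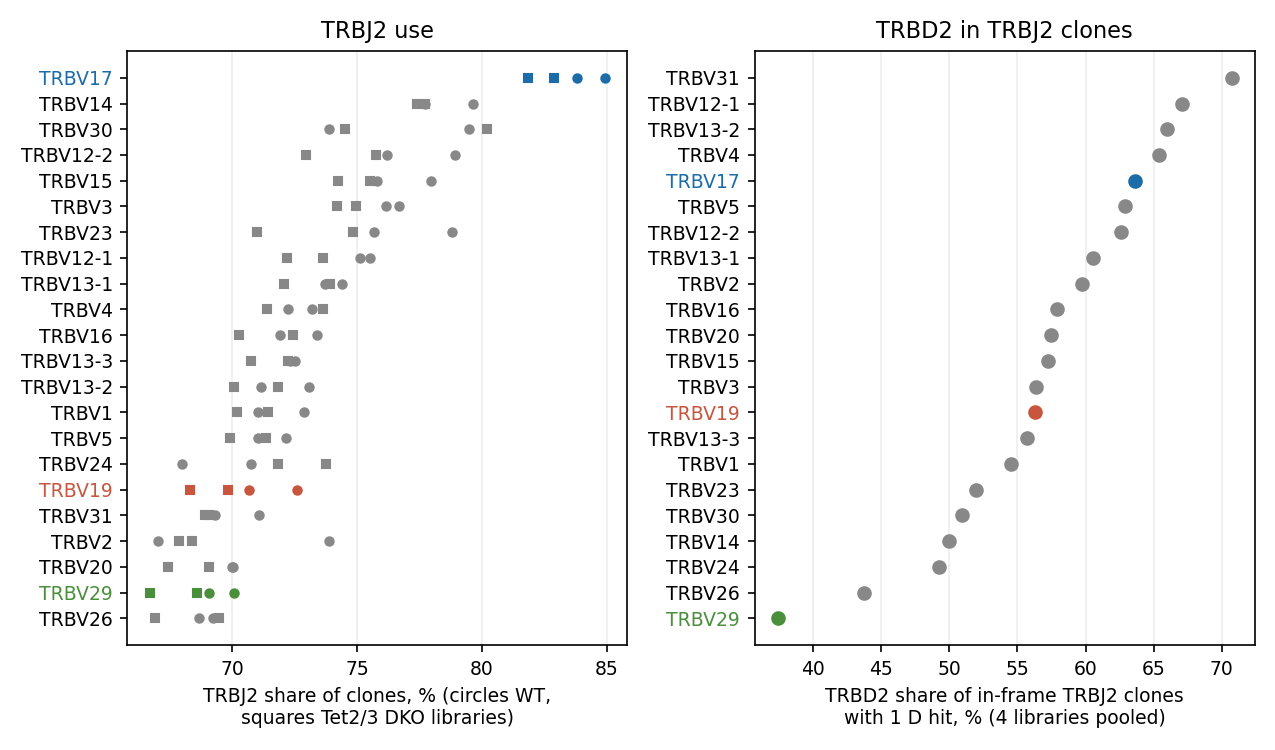
Left, the TRBJ2 share of clones of each TRBV segment with at least 1000 clones, in percent, with circles for WT and squares for Tet2/3 DKO libraries. Right, the TRBD2 share of in-frame TRBJ2 clones with 1 D hit, over the 4 libraries pooled. TRBV17 leads the left panel, with no library of another segment reaching its values, and TRBV29 has the lowest value on the right.

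Single J segments differed in use as well. By the mean of 4 libraries TRBJ2-7 was the most used partner of all 3, while in WT replicate 1 TRBV29 used TRBJ2-5 more (19.5% against 18.4%). It took 25.6% ± 2.16 of TRBV17 reads, 19.3% ± 2.51 of TRBV19 reads and 18.6% ± 0.145 of TRBV29 reads (SD, n = 4 libraries). All other TRBV reads had 21.3% to 21.5%. The least used partner was TRBJ1-5 for TRBV17 (1.14% ± 0.11) and TRBV19 (1.44% ± 0.54), and TRBJ1-6 for TRBV29 (2.90% ± 0.74). TRBJ1-1 and TRBJ1-2 took 3.35% and 2.06% of TRBV17 reads against 7.93% and 4.73% of all other reads, less in 4 of 4 libraries. TRBV29 took TRBJ1-5 in 3.84% and 4.07% of its reads in WT libraries, against 4.48% and 3.64% in Tet2/3 DKO libraries, 1.99 times the 2.01% of all other reads. TRBJ1-6 with TRBV19 stood at 3.41% and 4.78% in WT libraries, against 3.66% and 5.21% in Tet2/3 DKO libraries, 1.70 times the 2.52% of all other reads. Counted by clones these ratios were 1.98 and 1.47. Ratios for single J segments are descriptions, and no test was made of them.

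**Figure D3:**
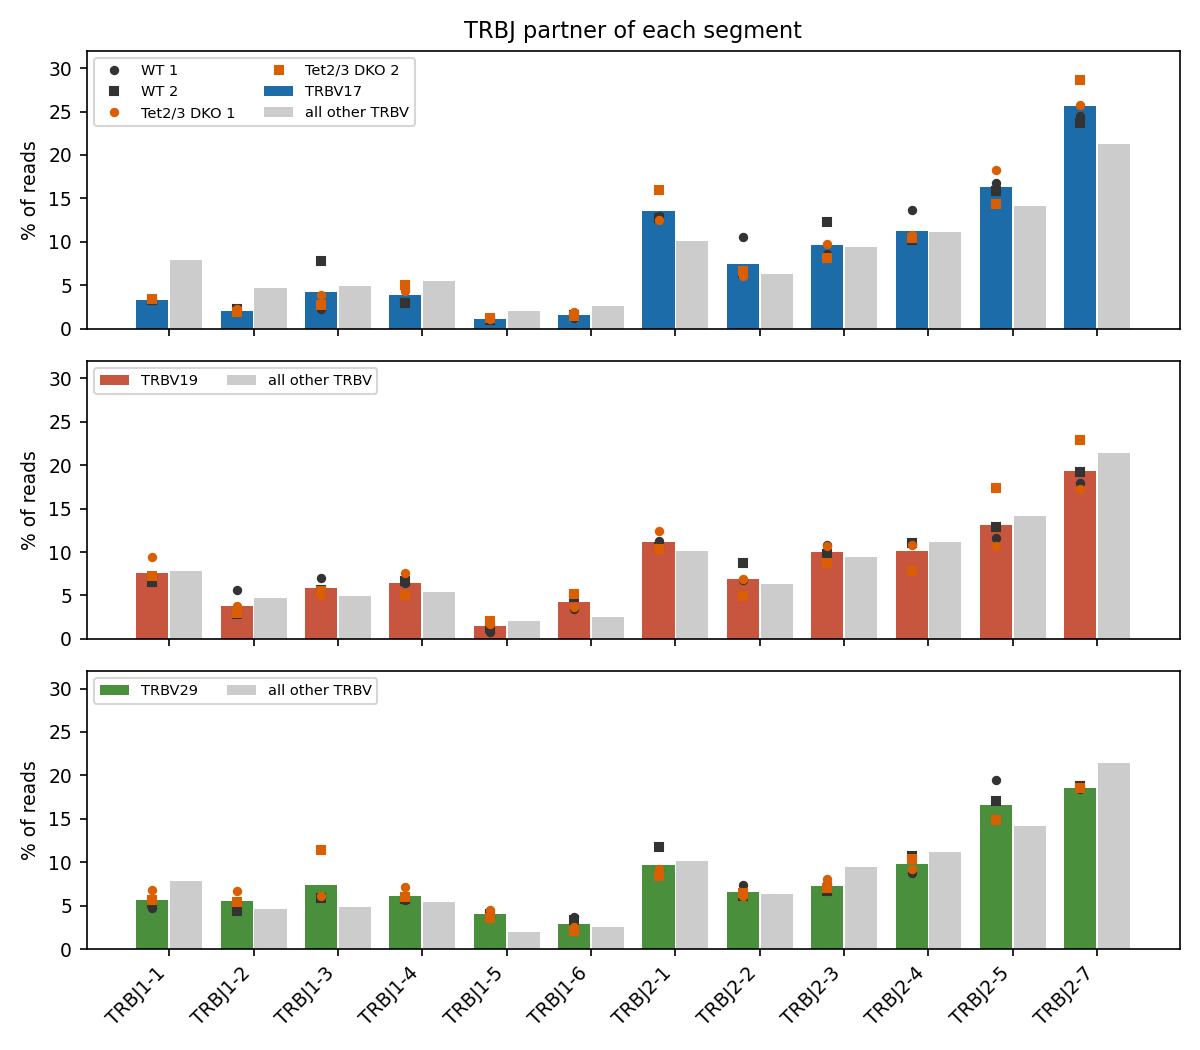
Share of each TRBJ segment among the reads of TRBV17, TRBV19 and TRBV29, in percent, as the mean of 4 libraries (coloured bars) with 1 symbol per library, beside all other TRBV reads (grey bars). TRBV17 lies above grey at TRBJ2-1 and TRBJ2-7 and below it at TRBJ1-1 and TRBJ1-2, and TRBV29 lies above it at TRBJ1-5.

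Of 285 V-J pairs tested with edgeR, 0 (0%) were called between genotypes and 29 (10.2%) had an unadjusted p under 0.05. The 3 segments had 36 of these pairs, of which 1 had an unadjusted p under 0.05. It was TRBV29 with TRBJ2-5, at 0.559% and 0.445% of the library in WT libraries, against 0.389% and 0.312% in Tet2/3 DKO (log2 fold change -0.52, SE 0.24, edgeR adjusted p = 0.480). The next smallest p belonged to TRBV29 with TRBJ1-6, at 0.106% and 0.0863% in WT libraries, against 0.0657% and 0.0432% in Tet2/3 DKO (log2 fold change -0.82, SE 0.41, edgeR adjusted p = 0.536). This log2 fold change lay between -1.15 and -0.39 over the alternatives, and was -0.39 with each clone counted once. Over 12 alternatives the adjusted p ranged from 0.0306 to 0.999 for the first and from 0.0747 to 0.999 for the second. Without Tet2/3 DKO replicate 1, 50 of 284 pairs (17.6%) were called, and TRBV29 with TRBJ2-5 (log2 fold change -0.69) and TRBV19 with TRBJ2-5 (0.90) were among them. With all libraries TRBV19 with TRBJ2-5 had a log2 fold change of 0.49 (edgeR adjusted p = 0.711, 0.0479 to 0.999 over the alternatives), and it was -0.09 without Tet2/3 DKO replicate 2. In the other alternatives 0 of the 36 pairs were called, while over all pairs 7 (2.46%) were called without the 10 largest clones of each library, 2 (0.702%) with the replicate number as a block and 4 (1.41%) without WT replicate 2. In simulations of the 285 pairs, 23.8% of pairs changed 2-fold and 89.8% of pairs changed 4-fold were called.

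TRBV29 had the lowest share of TRBD2, the second D segment, of the segments compared. TRBD1 can join either J cluster, while TRBD2 lies behind the TRBJ1 cluster and joins TRBJ2. Among in-frame TRBJ2 clones with a single D hit, TRBD2 was named in 36.9% and 36.9% of TRBV29 clones in WT libraries and in 39.1% and 36.6% in Tet2/3 DKO libraries. The other 21 segments together had 61.7% and 61.6%, and 59.9% and 57.8%. TRBV29 was lower in 4 of 4 libraries, by 22.9 percentage points (SD 2.20, two-sided exact sign-flip test, p = 0.13, not adjusted, chosen after its values were seen). Its in-frame values in the 2 genotypes overlapped. Among the 22 segments with at least 100 such clones it ranked lowest, with 37.4% of 3929 clones, and TRBV26 followed with 43.7%. In out-of-frame clones TRBV29 was again the lowest, with 40.6% of 143 clones, among 17 segments with enough clones. Its values spread widely over these few clones, from 27.5% and 31.8% in Tet2/3 DKO to 43.2% and 54.5% in WT. The genotypes did not overlap here, but this was not tested, and the share of segments with such a split was not counted. The out-of-frame TRBV19 clones had 50.9% ± 9.59 (SD, n = 4 libraries), against 64.9% for the other segments. TRBV17 (63.6%) and TRBV19 (56.3%) lay within the range of the other segments. These calls rest on short remains of D, with a median of 8 bases for TRBD1 and 9 for TRBD2 in TRBV29 clones, and TRBD2 was also named in 6.99% ± 0.98 of TRBV29 clones with TRBJ1, although TRBD2 lies behind TRBJ1 on the chromosome.

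The V ends were trimmed in a pattern of their own in each segment. Of in-frame TRBV17 clones 20.4% ± 0.80 kept the whole V end, 19.1% ± 1.48 had lost 3 bases and 5.26% ± 0.71 had lost 4. TRBV19 clones had lost 2 bases in 20.3% ± 0.77, 3 in 7.53% ± 0.63 and 4 in 19.1% ± 1.63. In TRBV29 clones, the most trimmed of the 3, 11.4% ± 1.00 were whole while 16.3% ± 0.82 had lost 5 bases and 16.96% ± 0.95 had lost 6 (SD, n = 4 libraries). In WT replicate 1 and Tet2/3 DKO replicate 2 the highest share was at 5. The mean number of bases trimmed was 2.70 for TRBV17, 2.95 for TRBV19 and 3.78 for TRBV29, against 2.27 to 2.30 for all other TRBV clones. All 3 were higher in 4 of 4 libraries, by 0.40, 0.65 and 1.51 bases (two-sided exact sign-flip test, p = 0.13, adjusted 0.144). By mean bases trimmed they ranked at 11, 7 and 3 of 24 segments, in the same order. The pooled other clones include the abundant and little trimmed TRBV31 (0.89 bases, 13.2% of clones) and TRBV5 (1.60 bases, 13.3%). An inserted base that matches the segment counts as kept, so trimming is a lower estimate.

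Trimming by genotype was 2.76 and 2.78 bases in WT against 2.63 and 2.64 in Tet2/3 DKO for TRBV17, and 3.83 and 3.87 against 3.72 and 3.71 for TRBV29. These values did not overlap, and a lower mean without overlap was found in 6 of 24 segments (25%). Weighted by reads TRBV17 overlapped (2.63 and 2.65 against 2.66 and 2.52), as did the out-of-frame clones of TRBV29 (3.80 and 4.20 against 3.82 and 3.61). Over in-frame clones the two-sided exact permutation test gave p = 0.333 for both (adjusted 0.75). In out-of-frame clones the TRBV17 difference was 0.0055 bases, against -0.14 in frame. TRBV19 had 2.95 and 2.93 bases in WT libraries, against 3.02 and 2.89 in Tet2/3 DKO libraries, which overlapped.

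**Figure D4:**
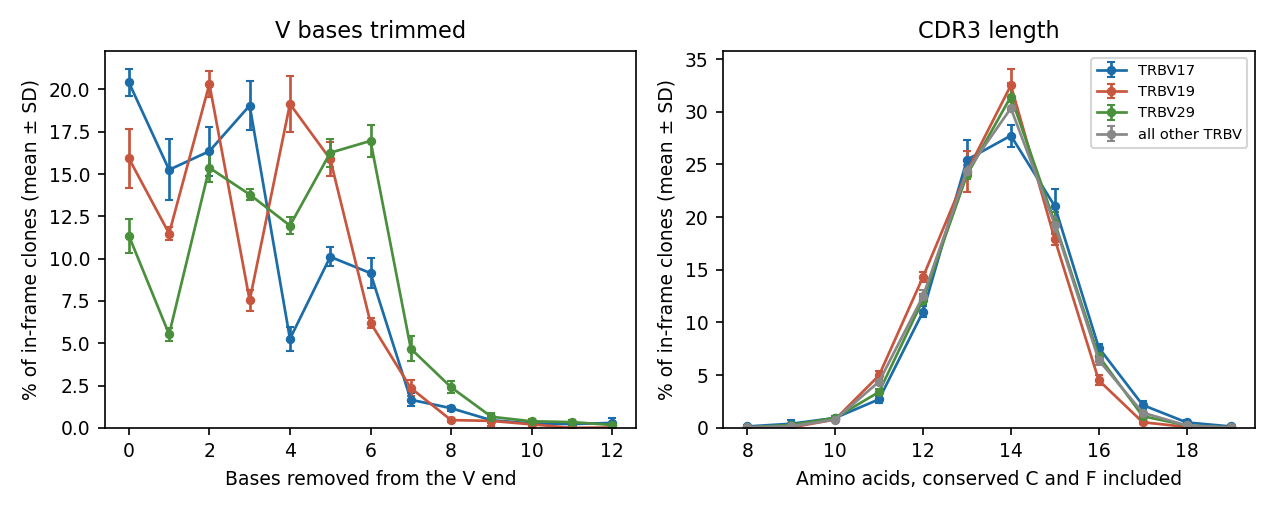
Left, bases removed from the V end, and right, CDR3 length in amino acids including both conserved ends, each in percent of in-frame clones of a segment, as mean ± SD of 4 libraries. The trimming peaks lie at 0 and 3 bases for TRBV17, at 2 and 4 for TRBV19 and at 2 and at 5 to 6 for TRBV29, while all CDR3 lengths peak at 14.

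Codon 5 of the segment remains in CDR3 where trimming has spared it. TRBV17 kept AGA in 41.7% and 42.8% of in-frame clones in WT libraries and in 46.1% and 49.2% in Tet2/3 DKO libraries. TRBV29 kept TTA in 30.4% and 29.4% in WT libraries and in 31.2% and 31.8% in Tet2/3 DKO libraries, and TRBV19 kept ATA in 23.9% and 24.8% in WT libraries and in 22.2% and 23.8% in Tet2/3 DKO libraries. The genotypes did not overlap in any of the 3, higher in Tet2/3 DKO for TRBV17 and TRBV29 and lower for TRBV19. Among 21 segments with a codon 5, 3 were higher (14.3%) and 2 lower (9.52%) without overlap (two-sided exact permutation test, p = 0.333 for each of the 3, not adjusted). By reads, TRBV17 kept AGA in 48.7% and 39.7% in WT libraries, against 46.7% and 53.6% in Tet2/3 DKO libraries, which overlapped. By its mean of 44.98% TRBV17 ranked at 7 of 21, TRBV29 with 30.7% at 15 and TRBV19 with 23.7% at 18.

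CDR3 length followed the common shape in all 3, with 14 amino acids as the most frequent length. Of in-frame TRBV17 clones 25.4% ± 1.83 had 13 amino acids, 21.04% ± 1.67 had 15 and 7.61% ± 0.32 had 16, compared with 24.3% ± 0.61, 19.3% ± 0.74 and 6.43% ± 0.42 for all other TRBV clones (SD, n = 4 libraries). At 13 amino acids TRBV17 lay below the other clones in WT replicate 1 (23.4% against 24.3%), and at 15 in Tet2/3 DKO replicate 1 (19.8% against 19.9%). TRBV19 had 17.9% ± 0.505 at 15 and 4.51% ± 0.48 at 16. Weighted by reads, the mean was 13.8 amino acids for TRBV17, 0.14 longer than in all other TRBV reads, and 13.5 for TRBV19, 0.10 shorter, each in 4 of 4 libraries (two-sided exact sign-flip test, p = 0.13, adjusted 0.144). TRBV29 had 13.7 and was longer in 3 of 4 libraries (p = 0.25, adjusted 0.268, same exact test). By genotype the TRBV17 mean was 13.83 and 13.83 in WT against 13.80 and 13.66 in Tet2/3 DKO libraries. A shorter mean without overlap occurred in 8 of 24 segments (33.3%), and the two-sided exact permutation test for TRBV17 gave p = 0.333 (adjusted 0.75). TRBV19 (13.54 and 13.63 against 13.61 and 13.40) and TRBV29 (13.65 and 13.74 against 13.75 and 13.66) overlapped. With each clone counted once, TRBV19 did not overlap (13.60 and 13.61 against 13.56 and 13.53), nor did TRBV17 (13.90 and 13.84 against 13.80 and 13.74), and a shorter mean by clones without overlap occurred in 8 of 24 segments (33.3%).

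Fewer TRBV17 and TRBV19 reads than average encoded an in-frame CDR3. Among reads with a CDR3, the in-frame share was 95.3% ± 0.34 for TRBV17, 95.03% ± 1.15 for TRBV19 and 97.0% ± 0.33 for TRBV29, against 97.5% for all other TRBV reads, lower in 4 of 4 libraries for each (SD, n = 4, two-sided exact sign-flip test, p = 0.13, adjusted 0.144). Without the 10 largest clones of each library the TRBV29 difference was -0.41 percentage points and no longer had 1 sign in all 4 libraries (p = 0.25, same exact test). TRBV29, annotated as a pseudogene, had an in-frame share close to that of the other segments. In-frame TRBV17 clones had 4.30 to 5.37 reads on average per library, and out-of-frame ones 2.88 to 3.56. Out-of-frame transcripts of TRBV19 had 3.28 to 3.46 reads per clone against 3.61 to 5.06 in frame. By genotype TRBV19 had in-frame shares of 93.9% and 94.6% in WT libraries, against 94.995% and 96.6% in Tet2/3 DKO libraries, without overlap, as in 4 of 24 segments in that direction (16.7%). TRBV17 had 95.5% and 95.5% in WT libraries, against 95.3% and 94.8% in Tet2/3 DKO libraries, lower without overlap, as in 6 of 24 segments (25%), but overlapped without the 10 largest clones of each library (95.3% and 95.3%, against 95.3% and 94.8%). As deposited, both gave p = 0.333 in the two-sided exact permutation test (adjusted 0.75). TRBV29 overlapped, with 96.8% and 97.5% in WT libraries, against 96.8% and 96.8% in Tet2/3 DKO libraries.

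Some TRBV17 transcripts lacked part of the V segment. In 36 clones, counted over the 4 libraries, bases 96 to 244 of the V part were missing, and each library held clones of this form. The missing stretch of 149 nucleotides begins with GT and ends with AG, the letters found at the ends of introns. The ends of this stretch and the joined sequence are shown, with GT and AG in capitals in the first 2 lines.
left end at base 96: gaatcatgataccatGTactggtac
right end at base 244: ggctctgcAGgcctagagtattctg
joined: gaatcatgataccatgcctagagtattctg
These clones held 0.503% and 0.601% of TRBV17 reads in WT libraries, against 0.256% and 0.471% in Tet2/3 DKO libraries. No test was made of these shares. A neighbouring form, lacking bases 102 to 244, was found in 8 clones, with 0 reads in WT replicate 1 and 15, 12 and 14 reads in WT replicate 2 and Tet2/3 DKO replicates 1 and 2. Among the TRBV17 clones for which no CDR3 was covered, a missing stretch was carried by 13 of 22 and 15 of 26 in WT libraries, against 9 of 16 and 11 of 22 in Tet2/3 DKO libraries. With the start of CDR3 included in the search, TRBV19 and TRBV29 had 7 and 2 clones with a missing stretch, and 3 and 2 in the V part alone, 0 of them with GT and AG at its ends, although TRBV19 has the same 12 bases as TRBV17 after CDR1 (atgtactggtac). By share of reads with such ends in the V part alone, TRBV17 (0.558%) ranked at 4 of 24 segments, after TRBV3 (7.70%), TRBV26 (4.76%) and TRBV4 (3.78%).

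The largest clones of the 3 segments differed from library to library. The CDR3 sequences of the clones with at least 0.1% of a library's TCRβ reads, and of the largest TRBV19 clone, are shown because they weigh most in the read counts. Bases between the V and the J end are in capitals.
TRBV17 TRBJ2-4 in WT replicate 1: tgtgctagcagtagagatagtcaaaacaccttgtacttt
TRBV17 TRBJ2-7 in WT replicate 1: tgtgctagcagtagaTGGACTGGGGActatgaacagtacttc
TRBV17 TRBJ1-3 in WT replicate 2: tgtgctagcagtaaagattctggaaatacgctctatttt
TRBV17 TRBJ2-1 in Tet2/3 DKO replicate 2: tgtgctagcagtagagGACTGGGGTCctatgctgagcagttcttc
TRBV29 TRBJ1-3 in Tet2/3 DKO replicate 2: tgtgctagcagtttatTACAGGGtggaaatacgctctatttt
TRBV19 TRBJ2-5 in Tet2/3 DKO replicate 2: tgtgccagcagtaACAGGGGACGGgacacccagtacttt
The 2 clones of WT replicate 1 held 427 reads (0.117%, 95% Wilson confidence interval 0.106% to 0.128%) and 411 reads (0.112%, 0.102% to 0.124%), at ranks 10 and 12 of that library. In WT replicate 2 the TRBJ1-3 clone held 475 reads (0.105%, 0.0956% to 0.114%), or 4.60% of that library's TRBV17 reads, where TRBJ1-3 took 7.80% of TRBV17 reads against 2.31% to 3.92% elsewhere. In Tet2/3 DKO replicate 2, TRBV17 had a clone of 688 reads (0.121%, 0.112% to 0.130%), TRBV29 one of 730 reads (0.128%, 0.119% to 0.138%) and TRBV19 one of 391 reads (0.0686%, 0.0622% to 0.0758%). All 6 were in frame. The TRBJ1-3 clone of WT replicate 2 was listed with an untrimmed V end, although its codon 5 is not that of TRBV17, so not all of its bases in lower case match the segments. The TRBJ2-4 clone had no inserted base and its CDR3 was also found with 14 reads in Tet2/3 DKO replicate 2. The TRBV19 CDR3 was also found with 2 reads in WT replicate 2. The other 4 were each confined to 1 of the 4 libraries.

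Elsewhere the most abundant clones were smaller. In Tet2/3 DKO replicate 1 they held 158 reads for TRBV17, 17 for TRBV19 and 118 for TRBV29. The largest TRBV29 clone held 238 reads in WT replicate 1 and 128 in WT replicate 2, and the largest TRBV19 clone 85 and 38. The 10 largest clones of each segment together took 15.4% and 9.48% of TRBV17 reads in WT libraries, against 7.80% and 16.7% in Tet2/3 DKO libraries. For TRBV29 these values were 8.29% and 4.18%, and 3.45% and 12.6%. For TRBV19 they were 7.84% and 4.66%, and 3.14% and 19.5%. In all 3 segments the highest value belonged to Tet2/3 DKO replicate 2 and the lowest to Tet2/3 DKO replicate 1, and the genotypes overlapped (two-sided exact permutation test, p = 1 for each). Over all segments the highest value belonged to Tet2/3 DKO replicate 2 in 16 of 24 and the lowest to Tet2/3 DKO replicate 1 in 13 of 24. Clones of at least 0.02% of the library numbered 11 and 4 among the 3 segments in WT libraries, against 4 and 13 in Tet2/3 DKO libraries. They made up 8.15% and 3.96% of all such TCRβ clones in WT libraries, against 7.14% and 5.86% in Tet2/3 DKO libraries, near the share of all clones that used these segments (6.24% to 6.70%). TRBV19 had 1 and 0 such clones in WT libraries, against 0 and 6 in Tet2/3 DKO libraries, where all TRBV segments together had 135 and 101, against 56 and 222. The 6 were 2.70% of the large clones of that library, and such clones held 16.8% of all its TCRβ reads, against 2.65% to 7.36% in the other 3 libraries.

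**Figure D5:**
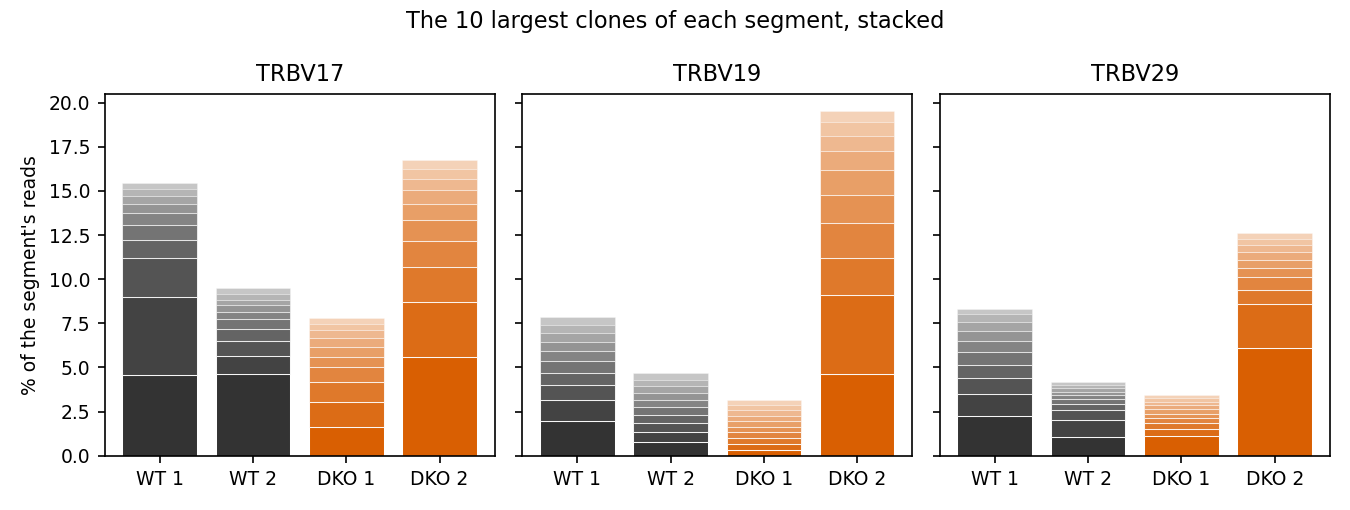
The 10 largest clones of each segment in each library, stacked from the largest at the bottom, in percent of the segment's reads. Tet2/3 DKO replicate 2 has the highest stack in all 3 segments, 19.5% for TRBV19, and Tet2/3 DKO replicate 1 the lowest, 3.14%.

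The same V, J and CDR3 nucleotide sequence was rarely found in several libraries. Of 7165 distinct in-frame TRBV17 sequences, 2.62% recurred in 2 or more libraries, and 3 were found in all 4. TRBV29 had 1.48% of 7920 and TRBV19 1.29% of 4336 in 2 or more libraries, and 0 in all 4. The other 21 segments had 5.22% of 275090. By this share the 3 segments ranked at 11, 8 and 7 from the lowest of 24, while they ranked at 11, 13 and 7 from the lowest by distinct sequences, in the order TRBV17, TRBV29 and TRBV19. The part of sequence number in this share was not tested. Of sequences found in exactly 2 libraries, 21 TRBV17, 17 TRBV29 and 7 TRBV19 sequences were shared by both WT libraries, and 37, 27 and 13 by both Tet2/3 DKO libraries. The other 21 segments went the same way, with 1669 and 2215, in libraries of 81127 and 100455 clones for WT and 96932 and 104017 for Tet2/3 DKO. As a share of the smaller library, full sequences of all segments were shared at 3.71% by the WT pair and 3.86% by the Tet2/3 DKO pair. The part of library size in these counts was not tested. The TRBV17 sequence with the largest lowest share among those in all 4 libraries is shown as the most public of the group.
TRBV17 TRBJ2-3 in all libraries: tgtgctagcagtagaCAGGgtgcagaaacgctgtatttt
It held 4 and 7 reads in WT libraries, against 3 and 9 in Tet2/3 DKO libraries.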

How the data were processed

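The authors amplified TCRβ transcripts from 20 ng of total RNA with a 5' RACE kit, sequenced them on a MiSeq, demultiplexed with bcl2fastq 2.20.0, trimmed with fastp 0.21.0 (submitters' processing notes) and assembled clones with MiXCR. Per the labels the build is mm10. They deposited for each library a table with the read count of each clone and its fraction of the library's reads. The deposited fraction equalled the share of the counts and served only as a check. Libraries held 365421 to 569678 TCRβ reads in 81127 to 104017 clones. TCRα tables were not used here.

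A clone is a distinct sequence as deposited. Clones without a covered CDR3 (0.735% to 1.00% of reads) stayed in shares. Counts per segment and V-J pair with at least 10 reads in total were tested with edgeR 4.0.16 (library totals, Benjamini-Hochberg over all features, threshold 0.05), with DESeq2 1.42.0 as an alternative. Single values were compared by exact permutation over 6 assignments, and segments with other TRBV clones by sign flips over 4 libraries. Missing stretches of at least 20 bases were searched against the most frequent V part. This search and the edgeR fits were tested on simulated data. All 24 segments matched a RefSeq symbol on GRCm38. The members, gene lists and tests were chosen with earlier results of these data known. Named were the 3 segments, TRBV13-3 and TRBV26, the most and least used TRBJ, the V-J pairs with the smallest p, the largest clones, and the CDR3 shared by all libraries. Other named features (TRBD2, single J segments, codon 5, the missing stretch, TRBV3 and TRBV4) were chosen after their values were seen.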

Additional observations from a re-analysis of the deposited data

How the results depend on the processing

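Of 246 alternative values for 38 results, 222 kept direction and side of the threshold, 21 turned sign and 3 moved a count. The TRBV17 read share (log2 fold change -0.09) was 0.0072 without the 10 largest clones of each library. Its clone share (log2 ratio -0.02) was 0.0010 with clones of at least 2 reads, and its V trimming difference was 0.0055 bases in out-of-frame clones. V trimming of TRBV19 (0.012 bases) became -0.31 in out-of-frame clones, and the CDR3 length difference of TRBV29 (0.011 amino acids) became -0.023 when each clone was counted once. Segments called numbered 0 with edgeR and 1 with DESeq2. V-J pairs called over all segments numbered 0, but 7 without the 10 largest clones, 2 with the replicate block, 4 without WT replicate 2 and 50 without Tet2/3 DKO replicate 1. The cause was not tested.

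Leaving out each library in turn gave 0 to 8 segments called and 0 to 2 pairs called among the 3 segments. The range of the read share was -0.17 to 0.0025 for TRBV17, of the clone share of TRBV17 -0.067 to 0.016, and of its TRBJ2 share -3.41 to 2.53 percentage points. The TRBJ2 share of TRBV19 ranged from -2.09 to 1.24 percentage points, its CDR3 length from -0.18 to 0.020 amino acids and its V trimming from -0.055 to 0.079 bases. CDR3 length of TRBV29 ranged from -0.037 to 0.058 amino acids. The log2 ratio for the 10 largest clones ranged from -0.67 to 0.43 for TRBV17, -0.99 to 1.64 for TRBV19 and -0.86 to 1.02 for TRBV29. Against all other TRBV, the reads per clone of TRBV17 ranged from -0.15 to 0.033, and none of the other 14 such comparisons turned. These last alternatives were chosen after seeing the data.

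With the replicate number as a block, the log2 fold changes were -0.08 for TRBV17, 0.25 for TRBV19 and -0.23 for TRBV29, and no call changed among them. Deviations of same-numbered samples correlated at 0.177 over 24 segments with only 2 pairs, and the labels give no shared batch, so the numbers were not taken to pair the samples. With 2 samples per genotype the permutation tests cannot reach 0.05, and differences of 2-fold or less are within what the segment test can miss.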
